A study of Mus musculus with 6 samples.

Results

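The genes of 8 enzymes of glutamine, aspartate and proline metabolism were examined in B cells undergoing IgA class switching. The genes were *Glud1*, *Glul*, *Got1*, *Got2*, *Gpt2*, *Aldh18a1*, *Pycr1* and *Oat*, taken by symbol from the 46983 genes listed. All 8 were found, and all 8 were among the 13312 genes tested. The values came from bulk RNA-seq of splenic B cells, with 3 WT and 3 *Hif1a* KO libraries (n = 3 per group), collected on day 3 of culture with LPS at 5 μg/ml together with TGF-β, BAFF and IL-5, each at 10 ng/ml. The KO mice carried floxed *Hif1a* alleles and *Mb1*-cre, in which the promoter of *Cd79a* drives the recombinase throughout the B lineage. The WT group was made of littermates that had either cre with a single floxed allele or floxed alleles without cre, and the labels do not tell which library was of which kind. All mice were on a C57BL/6 background, and neither age nor pooling of animals is given for these libraries. Where the 3 libraries of a group are not from separate mice, a p-value covers only the spread between these libraries.

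Glutamine supplies nitrogen and carbon to dividing lymphocytes. Glutamine synthetase (*Glul*) makes it from glutamate and ammonia, and glutamate dehydrogenase (*Glud1*) releases ammonia from glutamate to give α-ketoglutarate for the TCA cycle. Aminotransferases move the amino group of glutamate onto oxaloacetate to give aspartate (*Got1* in the cytosol, *Got2* in mitochondria) or onto pyruvate to give alanine (*Gpt2* in mitochondria). Proline is made from glutamate by pyrroline-5-carboxylate synthase (*Aldh18a1*) followed by a reductase (*Pycr1* in mitochondria), and ornithine aminotransferase (*Oat*) joins this route to ornithine. *Gpt2*, *Aldh18a1* and *Pycr1* are known in other cells as genes induced by the amino acid stress factor ATF4.

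The total of reads that scales the FPKM values, read back from them, was 25.0 to 37.2 M per library. Reads recovered in the listed genes made up 99.7% of it, so it is a total counted in genes and not the sequencing depth. WT replicate 1 stood apart from its group: across the genes tested its log2 values correlated at 0.983 with the other WT libraries and at 0.991 to 0.994 with the KO libraries. WT replicates 2 and 3 correlated at 0.994 with each other and at 0.980 to 0.985 with the KO libraries. These values do not tell which of the WT libraries are the unusual ones. From the values per gene alone it cannot be told whether the genotype of WT replicate 1 is that of its label. The WT means therefore hold this library as labelled, and the fits without it are given beside them. The FPKM of *Hif1a* was 36.5, 49.8 and 45.8 in WT and 46.5, 45.6 and 52.8 in KO replicates 1 to 3, and a value over all exons does not check the deletion. All 6 B-cell markers were expressed in every library, with a summed FPKM of 2879 to 3718 in WT and 2867 to 3889 in KO libraries.

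With all 6 libraries, none of the 8 enzyme genes was differentially expressed. The largest differences were lower values of *Gpt2*, *Pycr1* and *Aldh18a1* in *Hif1a* KO libraries, with log2 fold changes of −1.29, −0.98 and −0.63, and a higher value of *Glul*, with 0.37. *Glud1*, *Got1*, *Got2* and *Oat* had log2 fold changes between −0.068 and 0.047. These and all later log2 fold changes are KO minus WT on the scale of log2(FPKM + 1), which understates the change of low genes. The threshold was a limma p under 0.05 after Benjamini-Hochberg adjustment over all genes tested, which called 0 of the 8 and 0% of the 13312 genes. At an unadjusted p under 0.05 there were 3 of the 8 lower in KO cells, against 4.5% of all genes tested, and 0 of the 8 higher, against 2.48%. The KO values lay all below the WT values in 1 of the 8, *Aldh18a1*, against 6.03% of all genes, and all above in 0 of the 8, against 4.06%. The median log2 fold change of the 8 was −0.059, and that of all genes tested was −0.028. For any single gene, the smallest two-sided p that exact permutation allows with 3 libraries per group is 0.1. In bulk RNA, fewer cells of a type and less RNA per cell cannot be told apart.

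**Figure D1:**
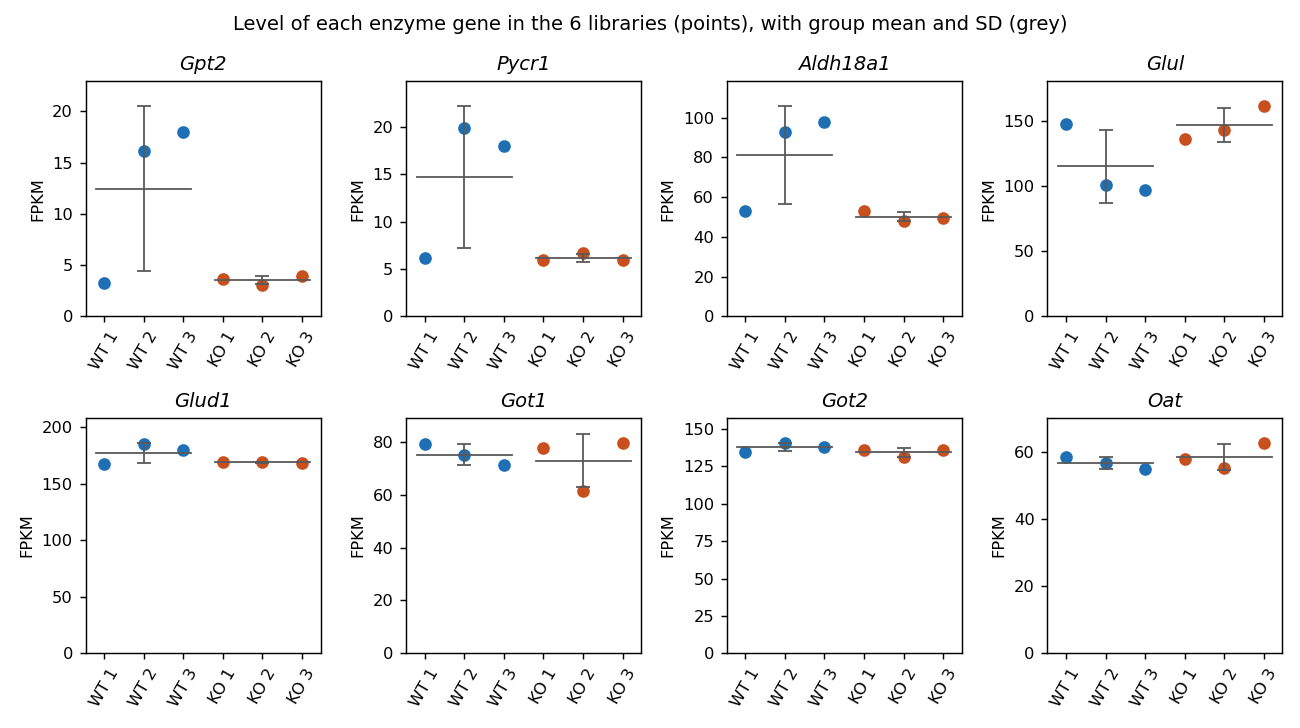
FPKM (linear axis from 0) of the 8 enzyme genes in WT (blue) and *Hif1a* KO (orange) replicates 1 to 3; each point is 1 library, and the grey line and bar are the group mean and SD. *Gpt2*, *Pycr1* and *Aldh18a1* were high in WT replicates 2 and 3 and low in WT replicate 1 and the KO libraries, *Glul* had the opposite order, and the lower row was nearly flat.

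The enzymes of the route from glutamate to proline come first. *Aldh18a1* (ENSMUSG00000025007, chromosome 19 from 40550257 to 40588463, minus strand, mm10) encodes the enzyme that commits glutamate to proline and ornithine. The 3 WT libraries, in the order of their replicate numbers, had an FPKM of 52.9, 92.7 and 97.9, and the 3 KO libraries 52.8, 48.3 and 49.4. WT replicates 2 and 3 were the high libraries, and WT replicate 1 exceeded the highest KO library by less than the spread of the KO libraries. The group means were 81.2 ± 24.6 and 50.2 ± 2.37 (SD, n = 3 each), giving a log2 fold change of −0.63 (SE 0.22, limma, Benjamini-Hochberg adjusted p = 0.626). *Pycr1* (ENSMUSG00000025140, chromosome 11 from 120635712 to 120643769, minus strand) encodes the reductase of the last step. Its FPKM was 6.15, 19.9 and 18.0 in WT and 5.95, 6.68 and 5.997 in KO replicates 1 to 3. The same WT libraries were high, and WT replicate 1 lay within the range of the KO libraries, so the groups overlapped. The means were 14.7 ± 7.48 and 6.21 ± 0.411 (SD, n = 3 each), with a log2 fold change of −0.98 (SE 0.39, limma, Benjamini-Hochberg adjusted p = 0.626). *Oat* (ENSMUSG00000030934, chromosome 7 from 132557478 to 132576398, minus strand), which exchanges ornithine with the same intermediate, had 58.5, 56.8 and 54.9 in WT and 58.1, 55.2 and 62.8 in KO replicates 1 to 3. Its groups overlapped, and the log2 fold change of 0.047 had a 95% interval from −0.11 to 0.21.

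Of the 3 aminotransferases of alanine and aspartate, *Gpt2* had the lowest level and the widest spread between WT libraries relative to its mean. *Gpt2* (ENSMUSG00000031700, chromosome 8 from 85492576 to 85527560, plus strand), the mitochondrial alanine aminotransferase, had an FPKM of 3.22, 16.2 and 17.9 in WT and 3.67, 3.11 and 3.92 in KO replicates 1 to 3. WT replicate 1 lay within the KO range, whereas WT replicates 2 and 3 averaged 4.78 times the KO mean. The means were 12.4 ± 8.04 in WT and 3.57 ± 0.416 in KO cells (SD, n = 3 each), so that the SD of the WT group was larger than the whole KO level, with a log2 fold change of −1.29 (SE 0.54, limma, Benjamini-Hochberg adjusted p = 0.626). These values rested on 160 to 872 reads per library. *Got1* (ENSMUSG00000025190, chromosome 19 from 43499752 to 43524605, minus strand), the cytosolic aspartate aminotransferase, had 79.1, 75.2 and 71.3 in WT and 77.7, 61.5 and 79.7 in KO replicates 1 to 3. Its lowest library was KO replicate 2, and without that library the log2 fold change turned from −0.051 (95% interval −0.31 to 0.21) to 0.066. *Got2* (ENSMUSG00000031672, chromosome 8 from 95864134 to 95888547, minus strand), the mitochondrial form, had 135.0, 140.6 and 138.3 in WT and 136.1, 131.1 and 135.9 in KO replicates 1 to 3. The groups overlapped, and the log2 fold change was −0.038 with a 95% interval from −0.16 to 0.089. *Got2* shares exonic bases with the annotated gene *Gm45760*, and because the strand option of the counting is not given, reads of the 2 cannot be told apart.

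At the glutamine and glutamate step, *Glul* (ENSMUSG00000026473, chromosome 1 from 153899944 to 153909723, plus strand) was the only 1 of the 8 with lower values in WT replicates 2 and 3 than in every KO library. Its FPKM was 147.4, 100.8 and 96.6 in WT and 136.1, 143.1 and 161.0 in KO replicates 1 to 3. WT replicate 1 lay within the KO range here too. The means were 114.9 ± 28.2 and 146.7 ± 12.9 (SD, n = 3 each), for a log2 difference of 0.37 (SE 0.16, limma, Benjamini-Hochberg adjusted p = 0.626). *Glul* overlaps exons of *Teddm2* and *Mir8114*. *Glud1* (ENSMUSG00000021794, chromosome 14 from 34310727 to 34345265, plus strand) had 167.7, 184.9 and 179.7 in WT and 169.6, 169.2 and 168.6 in KO replicates 1 to 3. WT replicates 2 and 3 were again above every KO library and WT replicate 1 below them, over a narrow range, with a log2 fold change of −0.068 and a 95% interval from −0.21 to 0.073.

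The 3 genes with the largest differences and *Got1*, which did not share their pattern, are shown with the 250 bases before their RefSeq start sites (GRCm38.p6), printed 5′ to 3′ on the strand of the gene. Each of the 8 genes had 1 window of 300 bases, from 250 before to 50 after the start. The letters searched on both strands were ACGTG and GCGTG, the core of the hypoxia response element bound by HIF-1, CACGTG, the E-box bound by MYC and related factors, and TGATGNAA, found in sites of ATF4 with C/EBP partners. Capitals mark CACGTG or TGATGNAA (on either strand). The windows lie at chr8:85492326-85492575 (*Gpt2*, plus strand), chr19:40588464-40588713 (*Aldh18a1*, minus strand), chr11:120643749-120643998 (*Pycr1*, minus strand) and chr19:43524606-43524855 (*Got1*, minus strand).
Gpt2: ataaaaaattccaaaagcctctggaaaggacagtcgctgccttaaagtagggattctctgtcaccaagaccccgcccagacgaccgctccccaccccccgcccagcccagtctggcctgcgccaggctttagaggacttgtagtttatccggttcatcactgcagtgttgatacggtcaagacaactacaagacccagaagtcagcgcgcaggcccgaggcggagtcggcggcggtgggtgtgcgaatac
Aldh18a1: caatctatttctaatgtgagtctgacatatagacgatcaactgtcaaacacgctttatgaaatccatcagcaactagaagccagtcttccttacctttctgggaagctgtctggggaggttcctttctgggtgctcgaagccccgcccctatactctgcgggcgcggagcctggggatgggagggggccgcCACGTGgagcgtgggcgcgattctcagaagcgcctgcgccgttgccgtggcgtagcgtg
Pycr1: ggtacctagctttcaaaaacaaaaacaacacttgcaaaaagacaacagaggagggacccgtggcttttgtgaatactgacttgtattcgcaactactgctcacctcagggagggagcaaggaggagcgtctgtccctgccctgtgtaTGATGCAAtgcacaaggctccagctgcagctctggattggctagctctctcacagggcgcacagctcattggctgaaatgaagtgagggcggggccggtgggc
Got1: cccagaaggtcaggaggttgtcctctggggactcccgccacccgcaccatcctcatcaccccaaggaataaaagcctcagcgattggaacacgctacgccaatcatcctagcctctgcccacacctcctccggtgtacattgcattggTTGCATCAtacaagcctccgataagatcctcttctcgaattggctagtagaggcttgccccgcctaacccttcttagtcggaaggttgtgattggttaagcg

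TGATGNAA was found in 2 of the 8 windows, those of *Pycr1* and *Got1*, beginning 103 and 102 bases before the start, and in 3.97% of the 32851 RefSeq windows of this length. *Pycr1* had a WT mean 2.37 times the KO mean and *Got1* a WT mean 1.03 times the KO mean. The letters lie on opposite strands in these 2 windows, and whether they bear on the values was not tested. CACGTG was found in 1 of the 8, *Aldh18a1*, and in 7.15% of all windows. ACGTG was found in 2 of the 8 (*Aldh18a1*, where both matches lie inside the E-box letters, and *Oat*) and in 19.6% of all windows, and GCGTG in 5 of the 8 (*Aldh18a1*, *Pycr1*, *Got1*, *Got2* and *Glud1*) and in 32.4%. The window of *Gpt2*, the gene with the largest fold change, held none of the 4, nor did that of *Glul*. These are matches of letters in a short window and do not show binding.

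The contrast of WT replicate 1 with the other WT libraries decided the test for 4 of the 8 genes. Without it, *Gpt2* (log2 fold change −1.99, adjusted p = 0.00126), *Pycr1* (−1.47, adjusted p = 0.00141) and *Aldh18a1* (−0.91, adjusted p = 0.00246, all from limma with Benjamini-Hochberg adjustment) were lower in KO cells. That is 3 of the 8, against 5.75% of all genes called lower in the same fit. *Glul* was higher (0.56, adjusted p = 0.0170 from the same fit), or 1 of the 8 against 3.64%. *Glud1*, *Got1*, *Got2* and *Oat* were not called in this fit either, with log2 fold changes of −0.11, −0.014, −0.053 and 0.069. This fit is set out because the values of WT replicate 1 lay near those of the KO libraries. Leaving out such a library favours larger differences and a smaller spread. Its adjusted p-values, here and below, are therefore descriptive and rest on WT replicates 2 and 3 alone in the WT group. WT replicate 1 lay within the range of the KO libraries in 6 of the 8 genes and in 64.2% of all genes tested, WT replicate 2 in 2 of the 8 and in 35.4%, and WT replicate 3 in 1 of the 8 and in 34.1%.

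**Figure D2:**
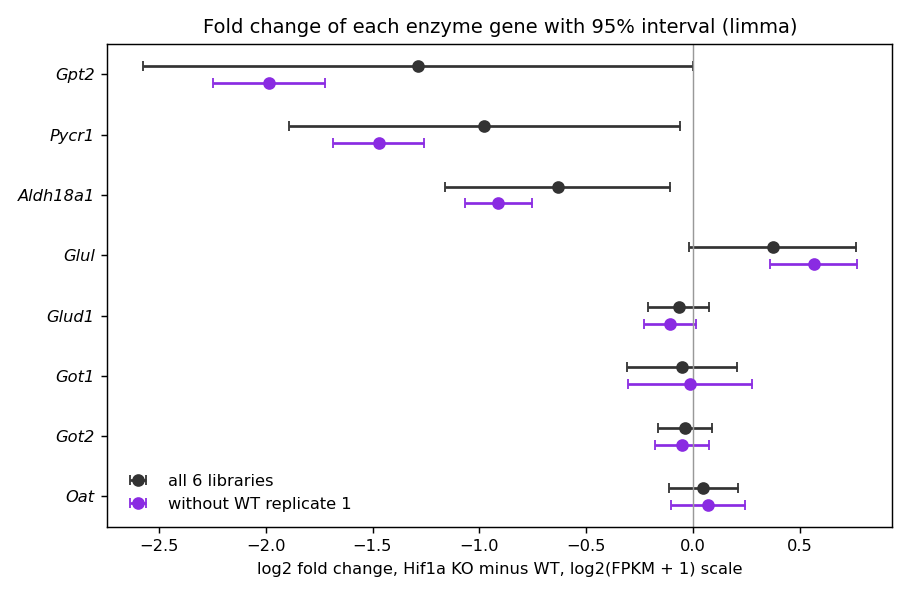
Log2 fold change (*Hif1a* KO minus WT, log2(FPKM + 1) scale) of the 8 enzyme genes with 95% intervals from limma, for all 6 libraries (black) and without WT replicate 1 (purple). The intervals of *Gpt2*, *Pycr1* and *Aldh18a1* were wide with all libraries and narrow without WT replicate 1, while those of *Glud1*, *Got1*, *Got2* and *Oat* spanned 0 in both.

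Levels of the 8 genes relative to each other, per length of the gene as the authors set it, ran in KO cells from *Glud1* (169.1 ± 0.528 FPKM) over *Glul*, *Got2*, *Got1*, *Oat* and *Aldh18a1* to *Pycr1* (6.21) and *Gpt2* (3.57). Neighbours whose KO libraries overlapped were *Glul* with *Got2* and *Got1* with *Oat*. In WT libraries *Aldh18a1*, with 52.9 to 97.9, spanned the levels of *Oat* and *Got1*, and *Pycr1* and *Gpt2* overlapped. The order depends on the lengths used: that recovered for *Aldh18a1* was 738 bases, while its longest annotated transcript has 3527. Per length of the longest transcript, *Got2* (87.9) led in KO cells, and *Oat* and *Glud1* were level at 58.8. *Aldh18a1* (10.5), *Pycr1* (2.53) and *Gpt2* (1.71) remained the lowest.

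The rest of the pathway was taken from 5 lists of 49 genes, of which 41 were tested and 8 had too low values. With all 6 libraries 0 of the 41 were differentially expressed. At an unadjusted p under 0.05 there were 7 lower and 1 higher in KO cells, against 4.5% and 2.48% of all genes tested, and the median log2 fold change was −0.11, against −0.028 over all genes. The KO values lay all below the WT values in 6 and all above in 3, against 6.03% and 4.06% of all genes. Without WT replicate 1, 10 of the 41 were called lower and 2 higher, against 5.75% and 3.64% of all genes in that fit.

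Among the enzymes that form glutamate or use it as amino donor, 2 of 9 were lower and 0 higher at an unadjusted p under 0.05, against 4.5% and 2.48% of all genes tested. *Psat1*, the serine synthesis enzyme that uses glutamate as amino donor, had an FPKM of 109.2, 226.7 and 238.5 in WT and 117.6, 108.9 and 99.3 in KO replicates 1 to 3, with a log2 fold change of −0.73, or −1.09 without WT replicate 1 (limma, Benjamini-Hochberg adjusted p = 0.00308). *Bcat1*, the cytosolic branched-chain aminotransferase, had 19.3, 55.8 and 56.8 in WT and 22.4, 17.9 and 13.8 in KO replicates 1 to 3, with −1.12, or −1.61 without WT replicate 1 (limma, Benjamini-Hochberg adjusted p = 0.00817). Both had the order of libraries seen in *Gpt2*, high in WT replicates 2 and 3 only. *Gpt*, the cytosolic counterpart of *Gpt2*, had means of 2.10 ± 0.144 FPKM in WT and 2.14 ± 0.511 in KO cells (SD, n = 3 each). Its log2 fold change was 0.0091 and turned sign under some alternatives. *Kyat1* and *Kyat3*, which act on kynurenine and glutamine, separated the groups with 0.12 and −0.076.

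Among the glutamine amidotransferases, which use the amide of glutamine, 1 of 9 was lower and 0 higher at an unadjusted p under 0.05, against 4.5% and 2.48% of all genes tested, and from 1 gene nothing is read about the list. This was *Asns*, asparagine synthetase, with an FPKM of 27.5, 141.8 and 142.5 in WT and 28.4, 26.5 and 27.0 in KO replicates 1 to 3. WT replicates 2 and 3 stood far above the other 4 libraries, which lay close together, and the log2 fold change was −1.56 (SE 0.59), or −2.34 without WT replicate 1 (limma, Benjamini-Hochberg adjusted p = 0.00016). *Nadsyn1*, NAD synthetase, separated the groups with higher KO values and a log2 fold change of 0.11. Without WT replicate 1, 3 genes of this list were called lower and 1 higher, against 5.75% and 3.64% of all genes.

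Of the 11 genes of aspartate use and the malate-aspartate shuttle, 0 passed the unadjusted threshold (4.5% lower and 2.48% higher over all genes) and 0 separated the groups (6.03% and 4.06%), and nothing is read about the list from these counts. The malate dehydrogenases *Mdh1* and *Mdh2* had log2 fold changes of 0.043 and −0.099. The aspartate-glutamate carriers *Slc25a12* and *Slc25a13* had −0.015 and −0.22, the latter reaching −0.33 without WT replicate 1 (limma, Benjamini-Hochberg adjusted p = 0.0473) and the former turning to 0.019 with median-ratio scaling.

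In the proline and ornithine list, 2 of 9 were lower and 1 higher at an unadjusted p under 0.05, against 4.5% and 2.48% of all genes tested. *Odc1*, ornithine decarboxylase, had 96.8, 122.8 and 123.4 FPKM in WT and 93.5, 80.5 and 85.8 in KO replicates 1 to 3, with groups that did not overlap and a log2 fold change of −0.39, or −0.51 without WT replicate 1 (limma, Benjamini-Hochberg adjusted p = 0.0172). *Srm*, spermidine synthase, also separated the groups, with −0.31, or −0.41 without WT replicate 1 (adjusted p = 0.0453 from the same limma fit). *Slc25a15*, the mitochondrial ornithine carrier, was the gene higher in KO, with 6.36, 3.94 and 3.98 in WT and 6.40, 6.69 and 7.02 in KO replicates 1 to 3. WT replicate 1 was next to the KO libraries, and the log2 fold change was 0.44, or 0.63 without it (adjusted p = 0.0117 from the same limma fit). *Pycr3*, a cytosolic reductase of the same step as *Pycr1*, had −0.15 with groups that did not overlap. Of the enzymes that break proline down, *Prodh* had 0.39 with overlapping groups and *Aldh4a1* −0.28 with separate groups. *Gclc* and *Gclm*, the subunits of the enzyme that begins glutathione synthesis from glutamate, had −0.48 and −0.42, and were the 2 of the 3 genes of the glutathione list that passed the unadjusted threshold, against 4.5% lower over all genes. Without WT replicate 1 they had −0.71 and −0.62 (limma, Benjamini-Hochberg adjusted p = 0.00961 and 0.0114).

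**Figure D3:**
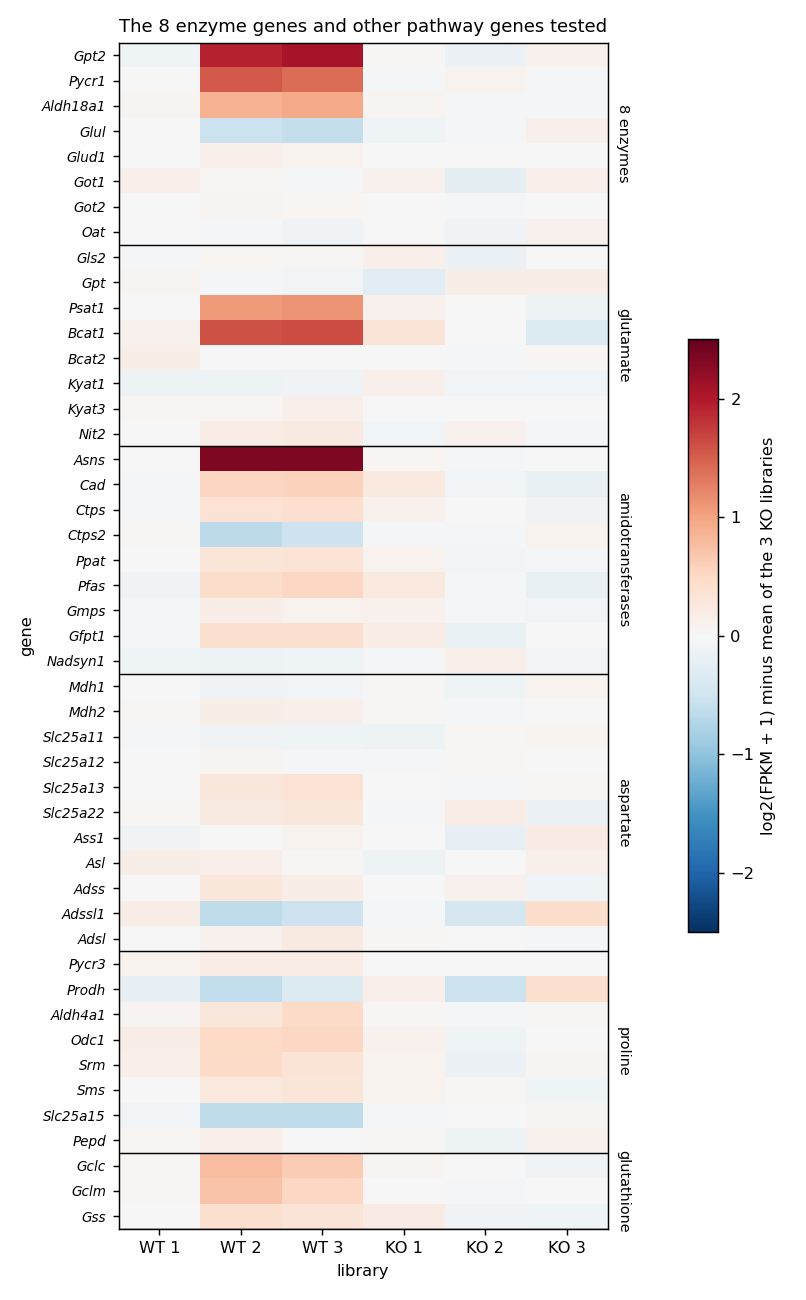
Colour gives log2(FPKM + 1) minus the mean of the 3 KO libraries for the 8 enzyme genes and other pathway genes tested (rows, grouped by list) in each library (columns). WT replicate 1 was pale like the KO libraries, and WT replicates 2 and 3 were red in *Gpt2*, *Pycr1*, *Psat1*, *Bcat1* and *Asns*, darkest in *Asns*. They were a paler red in others, among them *Aldh18a1*, *Gclc* and *Gclm*, and a similarly pale blue in *Glul*, *Ctps2* and *Slc25a15*.

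For each of the 8 genes, the gene with the most similar pattern over the 6 libraries was taken by Pearson's r of the log2 values. For *Gpt2* it was *Chac1* (r = 0.999), which encodes an enzyme that degrades glutathione, with an FPKM of 2.28, 11.96 and 12.9 in WT and 2.76, 2.04 and 2.68 in KO replicates 1 to 3. For *Aldh18a1* it was *Tars* (r = 0.9995), which encodes threonyl-tRNA synthetase, and for *Pycr1* it was *Ehd1* (r = 0.9996), a gene of endocytic recycling. *Glul* was most like *Rassf2* (r = 0.9996), *Glud1* like *Usp54* (r = 0.998), *Got2* like *Rpusd2* (r = 0.998), *Got1* like *Wls* (r = 0.996) and *Oat* like *Clptm1l* (r = 0.990). With 6 libraries that fall into separate clusters and 13312 genes to choose from, such an r is a description of the order of the libraries.

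Markers of some other cells differed between the libraries, and not all in the same order. The summed FPKM of the macrophage markers other than *Apoe* (9 of 10, chosen after its values were seen) was 169.1 and 118.5 in WT replicates 2 and 3, 73.4 in WT replicate 1 and 66.4 to 78.6 in KO libraries. With *Apoe*, whose FPKM was 1091 to 2837, the order was the opposite: the sum over the 10 was 1260 and 1211 in WT replicates 2 and 3, 2027 in WT replicate 1 and 1492 to 2904 in KO libraries. Of the 9 markers without *Apoe*, *Itgam* did not have the order of their sum, with 0.068 in WT replicate 3 and 0.236 in KO replicate 2. Erythroid markers summed to 12.8 and 9.38 in WT replicates 2 and 3, nearly all from *Hba-a1* and *Hbb-bs*, and to 0.756 to 1.49 elsewhere. *Alas2* was higher in KO replicate 1 (0.257) than in WT replicate 2 (0.207). Neutrophil markers summed to 33.1 in WT replicate 1, mostly from *S100a8* and *S100a9*, and to at most 0.528 elsewhere. *Ly6g* was highest in KO replicate 2 (0.182) and *Elane* in WT replicate 2 (0.211). Dendritic cell markers summed to 15.8 to 17.3 in WT and 11.6 to 12.4 in KO libraries, with WT replicate 1 on the side of its group in this sum. Of these markers only *Siglech* separated the groups, with an FPKM of 2.77 to 5.36 in WT and 1.86 to 2.497 in KO libraries. *Zbtb46* was lower in WT replicate 1 (0.914) than in any KO library (lowest 0.939), with 2.25 and 2.06 in WT replicates 2 and 3. *Itgax* and *Flt3* overlapped between the groups. Plasma cell markers summed to 834.2 and 791.4 in WT replicates 2 and 3, below 1281 in WT replicate 1 and 902.3 to 1580 in KO libraries. This sum was lowest where *Gpt2*, *Pycr1* and *Aldh18a1* were highest, and *Jchain*, *Xbp1* and *Prdm1* each had that order. The other markers of the list did not. *Sdc1* was lowest in KO replicate 1 (2.68, against 3.80 and 3.19 in WT replicates 2 and 3). *Mzb1* was higher in WT replicate 2 (509.5) than in KO replicate 2 (494.2). T-cell markers summed to at most 1.32, and those of stroma and endothelium, nearly all *Pecam1*, to 82.4 to 85.6 and 76.6 to 98.4. No marker of these lists was at 0 in all libraries, with 7 of 10 macrophage, 3 of 6 neutrophil, 2 of 4 erythroid, 4 of 4 dendritic and 0 of 5 T-cell markers reaching an FPKM of 1 in a library. Their part in the values of the 8 genes was not tested.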

How the data were processed

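RNA of 6 libraries of cultured splenic B cells, 3 WT and 3 *Hif1a* KO by the sample labels, was sequenced. The authors removed low-quality reads, used TopHat v2.0.12 to align read pairs to mm10 and HTSeq v0.6.1 to count them per gene, and deposited FPKM values, 1 column per library. For differential expression the authors used DESeq with an adjusted p under 0.05, and the paper reports differentially expressed genes between these groups. That test was not run here, so the counts of genes called here are those of limma on FPKM. Annotation release, strand option, handling of multi-mapping reads and any scaling between libraries are not given in the sources used here. Gene symbols and positions are those of GENCODE vM21 (GRCm38), which held 46488 of the 46983 gene IDs, and promoter windows from RefSeq.

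The 13312 genes whose mean FPKM reached 0.5 were tested on log2(FPKM + 1) with limma 3.58.1 in R 4.3.3 (mean-variance trend, no covariates, no further scaling), and the fit was tested on simulated data. Reads were recovered as whole multiples (tolerance 0.003 reads) for 25716 of 25717 genes above 0 in any library. The total behind the FPKM values was 25.0 to 37.2 M reads per library. Alternatives were a pseudocount of 0.1, quantile normalization or median-ratio scaling, another filter on low values or none, no trend, a replicate block, omission of each library in turn, voom on recovered reads and, added after seeing the data, library weights. The 8 genes, the lists and the markers were chosen with earlier results of these data known. Pathway genes were named where the unadjusted p was under 0.05, the groups did not overlap, or the gene was an isoform or direct counterpart. Some genes that met this rule are not reported here, though the list counts hold them. Tools were Python 3.11.15, pandas 2.3.3 and matplotlib 3.10.9.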

Additional observations from a re-analysis of the deposited data

How the results depend on the processing

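Over 15 alternatives, 118 of 120 values of the 8 enzyme genes kept their direction, and the exceptions came from leaving out a KO library (*Got1*, which ranged from −0.12 to 0.066, and *Oat*, from −0.0016 to 0.090). With 1 library left out, the log2 fold change ranged from −1.99 to −0.90 for *Gpt2*, from −1.47 to −0.70 for *Pycr1*, from −0.91 to −0.47 for *Aldh18a1* and from 0.26 to 0.56 for *Glul*. Apart from library weights, the number of these 8 genes called was 0 to 4, that of other pathway genes 0 to 12 and that of all genes 0 to 1251. The highest of these values came without WT replicate 1, and 1 gene was called without *Hif1a* KO replicate 1. Library weights, added after seeing the data and lowest for WT replicate 1 (0.2385), called 4, 12 and 1449, with −1.88 for *Gpt2*, −1.40 for *Pycr1*, −0.86 for *Aldh18a1* and 0.51 for *Glul*. Among other pathway genes, the direction turned for *Slc25a12* (0.019 with median-ratio scaling, 0.0017 with quantile normalization, −0.035 to 0.012 with 1 library left out) and *Gpt* (−0.0078 with library weights, −0.064 to 0.15 with 1 library left out). The cause of these changes was not tested. Voom on recovered reads also called 0 of the 8.

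The deviations of same-numbered libraries correlated at −0.099, 0.14 and −0.28, and those of differently numbered libraries at −0.20 to 0.30. With WT replicate 1 apart from its group, these values show no pairing but cannot exclude it. The replicate block called 0 of the 8 genes and 0 of all genes, as did the main fit. Depth limits *Gpt2* and *Pycr1* most, with at least 160 and 177 reads in each library.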
